A study of Mus musculus with 9 samples.

Results

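The 7 genes Kit, Flt3, Runx1, Gata2, Cebpa, Meis1 and Myc, which regulate blood formation and leukemia stem cells, were examined in peak lists of the histone mark H3R2me2a. They are 7 of 21523 protein-coding genes on chromosomes 1 to 19 and X and were chosen by name. Each gene was taken with 50 kb on either side (genome build mm10), which gave 7 windows of 1236.117 kb in all that do not overlap each other. H3R2me2a, in which arginine 2 of histone H3 carries an asymmetric dimethyl group, was mapped by chromatin immunoprecipitation with sequencing (ChIP-seq) in mouse cells labelled as bone marrow and named leukemia cells in the design text. The 6 libraries were 2 from cells without Prmt6 (Prmt6KO), 2 from cells without Igf2bp2 (Igf2bp2KO) and 2 from wild-type cells (WT), and 3 input libraries were not analysed here. Cells of each genotype grew in interleukin 3, interleukin 6 and stem cell factor, the ligand of the Kit receptor. How the alleles were made, what drives the leukemia and the age of the mice are not given in the sources used here. Peak lists hold no expression values, so the labelled cell type could not be set against marker genes. Nothing says that replicates came from separate cultures or animals, so each spread and p-value measures the spread between these libraries, which may be technical.

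As background, PRMT6 is the main enzyme known to write H3R2me2a, a mark that opposes the trimethylation of the neighbouring lysine 4 found at active promoters. IGF2BP2 is a protein that binds m6A-modified RNA. Kit and Flt3 encode receptor tyrosine kinases of stem and progenitor cells, and FLT3 is often mutated in acute myeloid leukemia. Runx1 and Gata2 encode transcription factors needed for blood stem cells, and Cebpa one needed for granulocytes. Meis1 encodes a homeodomain cofactor of HOXA9 in leukemia, and Myc a transcription factor of growth and proliferation.

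No annotated promoter of these genes carried a listed peak. RefSeq (GRCm38.p6, which is mm10) gives 9 promoters for 6 of the 7 genes, from 250 bases before to 50 after a start, and Myc has no entry. The Kit starts at 75574987 and 75574991 nearly coincide, so the 9 promoters and starts are not all separate places. In each of the 6 lists, 0 of the 9 overlapped a peak. Over all 32618 promoters, 14.0% and 4.95% overlapped one in Prmt6KO, 0.0521% and 0.0368% in Igf2bp2KO, and 1.91% and 1.15% in WT. At those rates a count of 0 among 9 is not set apart from the other promoters. The 4 promoters shown are those of the starts with the nearest peaks (Runx1, Gata2 and Flt3) and that of Meis1, the gene with the densest WT peaks. Each is the 250 bases before the start, 5′ to 3′ on the gene's strand, from RefSeq, with motif matches in capitals.

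Runx1 distal promoter, chr16:92826075-92826324, minus strand: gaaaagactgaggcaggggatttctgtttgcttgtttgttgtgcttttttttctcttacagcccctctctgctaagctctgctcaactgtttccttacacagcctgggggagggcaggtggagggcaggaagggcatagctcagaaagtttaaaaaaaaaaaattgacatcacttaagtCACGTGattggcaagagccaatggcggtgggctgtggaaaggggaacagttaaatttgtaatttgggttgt

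Gata2 inner promoter, chr6:88198414-88198663, plus strand: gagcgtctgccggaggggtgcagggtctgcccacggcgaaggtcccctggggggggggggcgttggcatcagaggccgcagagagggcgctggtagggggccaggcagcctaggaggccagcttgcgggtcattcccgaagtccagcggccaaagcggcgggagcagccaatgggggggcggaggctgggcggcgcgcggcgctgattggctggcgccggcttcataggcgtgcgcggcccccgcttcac

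Flt3 promoter, chr5:147400490-147400739, minus strand: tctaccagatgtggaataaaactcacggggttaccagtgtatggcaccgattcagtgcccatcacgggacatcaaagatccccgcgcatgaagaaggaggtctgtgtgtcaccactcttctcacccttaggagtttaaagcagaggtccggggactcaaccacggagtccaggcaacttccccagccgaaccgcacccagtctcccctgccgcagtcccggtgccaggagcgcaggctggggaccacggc

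Meis1 promoter, chr11:19018970-19019219, minus strand: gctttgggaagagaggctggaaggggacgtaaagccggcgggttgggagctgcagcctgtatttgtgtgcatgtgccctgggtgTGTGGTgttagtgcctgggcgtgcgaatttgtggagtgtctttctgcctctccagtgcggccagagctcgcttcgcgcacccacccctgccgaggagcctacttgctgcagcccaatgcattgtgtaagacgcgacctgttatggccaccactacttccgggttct

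Motifs of factors that the members encode were searched on both strands of these 250 bases. The E-box CACGTG, which MYC binds, was found in the distal Runx1 promoter and in 6.06% of all promoters. The RUNX core TGTGGT was found in the Meis1 promoter and in 13.9% of all promoters. The GATA core AGATAA, the MEIS core TGACAG and the C/EBP-type TTGCNNAA were in 0 of the 9, beside 10.0159%, 15.6% and 9.62% of all promoters. No member promoter held more than 1 motif, so no matches overlapped. Guanine and cytosine made up 45.6% of the distal Runx1 promoter and 59.2% to 74.0% of the other 8, beside a median of 52.4% over all promoters. A match is a description of the letters and does not show binding.

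Peaks near the start sites were closest in Prmt6KO replicate 1 at all 9 starts, and that list is the longest, with 1 peak per 3.16 kb. Prmt6KO replicate 2 had 1 per 5.98 kb, and WT 1 per 15.8 and 19.2 kb. Shorter distances are thus expected in Prmt6KO at any position, and those given here are not corrected for list length. At the distal Runx1 start, whose sequence is shown above, the nearest peaks lay 0.277 and 0.393 kb away in Prmt6KO and 8.01 and 11.7 kb away in WT. The Prmt6KO peaks were at 92825504 to 92825797 (3 fragments), downstream, and at 92826467 to 92826666 (4 fragments), upstream, so they lay on opposite sides of the start. At the inner Gata2 start the distances were 0.538 and 13.8 kb in Prmt6KO and 3.67 and 18.3 kb in WT. At the Flt3 start they were 0.664 and 6.85 kb in Prmt6KO and 10.9 and 16.9 kb in WT. At the annotated Meis1 start, inside the gene, they were 2.14 and 4.95 kb in Prmt6KO and 4.92 and 14.5 kb in WT. The Prmt6KO replicate 2 peak next to Meis1 (19023922 to 19024121) lay inside the WT replicate 1 peak there (19023885 to 19024322). In Igf2bp2KO the nearest peak to any of the 9 starts was 1474.03 kb away, downstream of the Flt3 start in replicate 2.

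The lists differ in length and in depth. Prmt6KO lists held 812414 and 430225 peaks on chromosomes 1 to 19 and X, Igf2bp2KO lists 961 and 1221, and WT lists 162454 and 133960. The median background implied by pileup and fold enrichment is the one measure of depth the lists carry. It was 0.736 and 1.21 fragments in Prmt6KO, 1.45 and 1.33 in Igf2bp2KO, and 1.46 and 1.44 in WT. Summits began at 2 and 3 fragments in Prmt6KO, at 8 and 7 in Igf2bp2KO, and at 4 and 4 in WT. WT replicate 1 stood apart on chromosome X, with 0.191 times the peaks that its mean density gives, against 1.18 times in WT replicate 2, and all 7 genes lie on autosomes. The number of peaks in a window, divided by the number that the mean density of its list gives for that length, is called the relative density here.

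Together the 7 windows held about the number of peaks that the lists' mean densities give in the first replicates and fewer in the second. They held 408 and 137 peaks in Prmt6KO, 0 and 0 in Igf2bp2KO, and 82 and 48 in WT. The mean density gives 390.6 and 206.8 in Prmt6KO, 0.462 and 0.587 in Igf2bp2KO, and 78.1 and 64.4 in WT. The relative density was 1.04 and 0.662 in Prmt6KO and 1.05 and 0.745 in WT, so the genotypes overlapped. On the log2 scale the mean was -0.26 ± 0.46 in Prmt6KO and -0.18 ± 0.35 in WT (SD, n = 2 each), a difference of -0.09 that is smaller than either spread. The median over the 7 genes was 1.06 and 0.641 in Prmt6KO and 0.780 and 0.565 in WT. Over all 21523 windows it was 1.01 and 0.779 in Prmt6KO and 0.798 and 0.679 in WT. All 7 genes were denser in replicate 1 than in replicate 2 of Prmt6KO, as were 72.3% of all windows. In WT 5 of the 7 were, all but Flt3 and Myc, beside 59.3% of all windows.

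**Figure D1:**
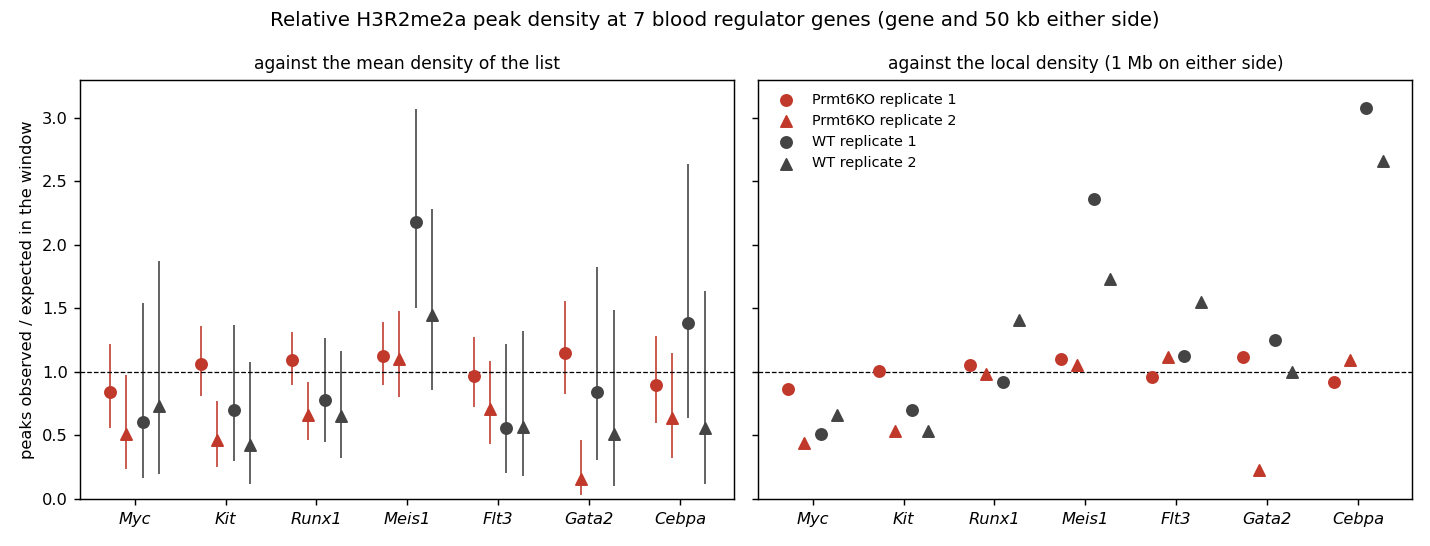
Relative H3R2me2a peak density (peaks observed divided by peaks expected, no unit) in each of the 7 windows for the Prmt6KO and WT libraries, against the mean density of the list and against the local density, with 95% exact Poisson intervals for counting error alone. Meis1 stands above 1 in all 4 libraries, at 1.12 and 1.10 in Prmt6KO and 2.18 and 1.44 in WT, and Gata2 in Prmt6KO replicate 2 is the lowest point at 0.158.

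Kit (gene ID 16590, chromosome 5, 75574987 to 75656722) was below the mean density in both WT libraries. Its window of 181.736 kb held 61 and 14 peaks in Prmt6KO, 0 and 0 in Igf2bp2KO, and 8 and 4 in WT. The relative density was 1.06 (95% exact Poisson interval 0.813 to 1.36) and 0.460 (0.252 to 0.772) in Prmt6KO, against 0.697 (0.301 to 1.37) and 0.422 (0.115 to 1.08) in WT. The 2 Prmt6KO libraries differed from each other by more than the WT libraries did, and the genotypes overlapped. Kit stood at percentile 61.6 and 19.8 of all windows in Prmt6KO and at 41.9 and 32.1 in WT, so its WT values were not unusual. Against the density of 1 Mb on either side the values were 1.003 and 0.535 in Prmt6KO and 0.699 and 0.537 in WT. Within the gene lay 26 and 9 peaks in Prmt6KO and 3 and 1 in WT, so most WT peaks at Kit were in the flanks. Kit also held 3 of the 6 peaks with a q of 0.05 or below in the 7 windows. The peak in Prmt6KO replicate 1 lay downstream of the gene at 75671026 to 75671323 (7 fragments, fold enrichment 4.61, q 0.00970). The others lay in WT replicate 1, at 75554218 to 75554517 (9 fragments, q 0.0192) upstream and at 75667745 to 75668069 (10 fragments, fold enrichment 4.47, q 0.00324) downstream. No other list had a peak overlapping any of them. Over all windows 22.2% and 14.8% of WT replicate 1 peaks, at any q, overlapped Prmt6KO replicates 1 and 2, and 6.10% overlapped WT replicate 2. The share among peaks with a q of 0.05 or below was not counted, so the lack of overlap does not set these peaks apart. A WT pair overlapped between replicates, 128 kb downstream of the start. It lay at 75702601 to 75702934 (6 fragments, q 0.646) in replicate 1 and 75702625 to 75702904 (8 fragments, q 0.119) in replicate 2.

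Flt3 (gene ID 14255, chromosome 5, 147330741 to 147400489) was the member at which both Prmt6KO values lay above both WT values. Its window of 169.749 kb held 52 and 20 peaks in Prmt6KO, 0 and 0 in Igf2bp2KO, and 6 and 5 in WT. This gave relative densities of 0.969 and 0.704 in Prmt6KO, against 0.559 and 0.565 in WT. That order holds in 28.2% of all windows, so 1 of 7 genes is not above the background. The surroundings of Flt3 were sparse in 3 of the 4 lists, and against them the values were 0.957 and 1.12 in Prmt6KO and 1.12 and 1.55 in WT, where the order no longer held. Within the gene lay 15 and 9 peaks in Prmt6KO and 2 and 2 in WT, a relative density of 0.681 and 0.771 in Prmt6KO and 0.454 and 0.550 in WT. The flanks had 1.17 and 0.657 in Prmt6KO and 0.633 and 0.576 in WT, so the gene was sparser than its flanks in all but Prmt6KO replicate 2. The window also holds Cdx2, a homeobox gene, Urad and part of Pan3, so Flt3 shares it with other protein-coding genes. The highest WT summits, with 8 fragments each, lay upstream of Flt3, at 147435275 to 147435507 in replicate 1 and 147433457 to 147433667 in replicate 2, both within Pan3.

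Runx1 (gene ID 12394, chromosome 16, 92601466 to 92826074) is the longest member, with a window of 324.609 kb. It held 112 and 36 peaks in Prmt6KO, 0 and 0 in Igf2bp2KO, and 16 and 11 in WT. The relative density was 1.09 (0.899 to 1.31) and 0.663 (0.464 to 0.918) in Prmt6KO, against 0.780 (0.446 to 1.27) and 0.650 (0.325 to 1.16) in WT. The second Prmt6KO library lay between the WT libraries, so the genotypes overlapped. Against the local density the values were 1.06 and 0.981 in Prmt6KO and 0.921 and 1.41 in WT. Within the gene lay 74 and 25 peaks in Prmt6KO and 11 and 7 in WT. All WT flank peaks, 5 and 4, were upstream of the gene, and the 50 kb downstream held 0 and 0, against 16 and 6 in Prmt6KO. The lists have 1 peak per 15.8 and 19.2 kb in WT and per 3.16 and 5.98 kb in Prmt6KO. Few WT peaks are thus expected in 50 kb, and the share of windows with an empty flank was not counted.

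Runx1 also held the one place in the 7 windows where a peak was listed in both replicates of a genotype and in another genotype. It lay inside the gene, 92.7 kb from the distal start whose sequence is shown above. The peaks were at 92732986 to 92733537 in Prmt6KO replicate 1 and 92733115 to 92733409 in Prmt6KO replicate 2 (4 fragments each), and at 92733218 to 92733431 in WT replicate 1. The WT replicate 1 peak had 8 fragments and a fold enrichment of 3.66, level with the highest of that library at Runx1. The highest WT replicate 2 peak, also with 8 fragments, lay at 92729920 to 92730145 and overlapped none of these 3. Runx1 is the longest window, with 112 of the 408 Prmt6KO replicate 1 peaks. Over all windows 4.24% and 3.06% of that list's peaks overlapped WT replicates 1 and 2. How many windows hold such a place was not counted, so 1 does not set Runx1 apart.

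Gata2 (gene ID 14461, chromosome 6, 88193891 to 88207032) showed the largest gap between replicates. Its window of 113.142 kb held 41 and 3 peaks in Prmt6KO, 0 and 0 in Igf2bp2KO, and 6 and 3 in WT. The relative density was 1.15 (0.823 to 1.56) and 0.158 (0.0327 to 0.463) in Prmt6KO, against 0.839 and 0.509 in WT. The Poisson intervals of the Prmt6KO libraries do not overlap, and in all windows the 2 stood at percentile 78.1 and 1.38. Both Prmt6KO libraries had more peaks than both WT libraries at 6 of the 7 genes, as in 94.1% of all windows, and Gata2 was the exception. The surroundings were not as sparse in Prmt6KO replicate 2, and against them the values were 1.12 and 0.228 in Prmt6KO and 1.25 and 1.0006 in WT. All WT flank peaks, 5 and 3, lay upstream and 0 lay downstream, while Prmt6KO had 20 and 1 upstream and 16 and 2 downstream. As at Runx1, few WT peaks are expected in a flank, and the share of windows with an empty flank was not counted. A WT pair overlapped between replicates, at 88177317 to 88177516 (4 fragments) and 88177118 to 88177403 (5 fragments), within the long non-coding RNA gene Gm38708.

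Cebpa (gene ID 12606, chromosome 7, 35119293 to 35121928), a short gene, was denser than its surroundings in WT. Its window of 102.636 kb held 29 and 11 peaks in Prmt6KO, 0 and 0 in Igf2bp2KO, and 9 and 3 in WT. Relative densities were 0.894 and 0.641 in Prmt6KO, against 1.39 (0.635 to 2.63) and 0.561 (0.116 to 1.64) in WT, so the genotypes overlapped. The density of 1 Mb on either side was 0.968 and 0.586 times the list's mean in Prmt6KO and 0.451 and 0.211 times in WT. Against it the window held 0.923 and 1.09 times the expected peaks in Prmt6KO and 3.08 and 2.66 times in WT. The WT values rest on 9 and 3 peaks where 2.93 and 1.13 are expected. With Meis1, Flt3 and Gata2, Cebpa was 1 of 4 members above the local density in both WT libraries, a state of 25.6% of all windows. The gene itself held 1 and 0 peaks in Prmt6KO and 0 and 0 in WT, and the Prmt6KO peak (35121429 to 35121940, 5 fragments) reached over its end.

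Meis1 (gene ID 17268, chromosome 11, 18880428 to 19019651) was the densest of the 7 genes in WT. Its window of 239.224 kb held 85 and 44 peaks in Prmt6KO, 0 and 0 in Igf2bp2KO, and 33 and 18 in WT. The relative density was 1.12 (0.898 to 1.39) and 1.10 (0.799 to 1.48) in Prmt6KO, against 2.18 (1.50 to 3.07) and 1.44 (0.856 to 2.28) in WT. The interval of WT replicate 2 includes 1. Both Prmt6KO values were below both WT values, an order that 14.6% of all windows share. Among all windows Meis1 stood at percentile 74.2 and 75.8 in Prmt6KO and at 97.2 and 85.3 in WT. It was also the one member above a relative density of 1 in both WT libraries, as were 21.6% of all windows, while 5 of the 7 genes were below 1 in both, as were 53.4%.

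The surroundings of Meis1 did not share its WT density. In 1 Mb on either side the density was 1.02 and 1.04 times the list's mean in Prmt6KO and 0.926 and 0.835 times in WT. Against it the window held 1.10 and 1.05 times the expected peaks in Prmt6KO and 2.36 and 1.73 times in WT. Within the gene lay 55 and 23 peaks in Prmt6KO and 18 and 15 in WT, a relative density of 1.25 and 0.987 in Prmt6KO and 2.05 and 2.07 in WT. The flanks had relative densities of 0.949 and 1.26 in Prmt6KO and 2.37 and 0.576 in WT. The WT libraries had close densities in the gene, and of the 4 libraries WT replicate 1 had the densest flanks. Of 6646 genes with a mean of at least 5 peaks inside the gene, Meis1 stood at percentile 78.8 and 51.3 in Prmt6KO and at 89.1 and 87.8 in WT.

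None of the 18 peaks of WT replicate 1 in Meis1 overlapped one of the 15 of WT replicate 2. Over all windows 6.10% and 7.76% of WT peaks overlapped the other replicate, so 0 of 18 is near the background. The one overlap was a replicate 2 peak at the edge of the window (18830166 to 18830465), with a replicate 1 peak outside it. In Prmt6KO, 11 of 85 peaks of replicate 1 and 11 of 44 of replicate 2 overlapped the other, 9 of each in the gene. Over all windows the shares were 10.6% and 21.8%, so these counts are near the background. The highest summit of all 7 windows was in WT replicate 1 at 18906311 to 18906608, in the gene, with 11 fragments, a fold enrichment of 4.88 and a q of 0.000458. No other list had a peak overlapping it, and the nearest WT replicate 2 peak lay 0.882 kb away. As at Kit, the share of peaks with such a q that overlap another list was not counted. Another 2 WT replicate 1 peaks had a q of 0.0192 and 9 fragments, at 18867024 to 18867262 downstream of the gene and at 18897761 to 18897965 in it.

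Myc (gene ID 17869, chromosome 15, 61985341 to 61990361) had, like Flt3, fewer peaks than the mean density gives in all 4 longer lists. Its window of 105.021 kb held 28 and 9 peaks in Prmt6KO, 0 and 0 in Igf2bp2KO, and 4 and 4 in WT. This came to a relative density of 0.844 (0.561 to 1.22) and 0.512 (0.234 to 0.972) in Prmt6KO, against 0.603 (0.164 to 1.54) and 0.731 (0.199 to 1.87) in WT, so the genotypes overlapped. Among all windows Myc stood at percentile 19.5 and 24.5 in Prmt6KO and at 35.4 and 53.9 in WT, so in WT it was near the middle. The surroundings were not sparse, and against them the values were 0.867 and 0.437 in Prmt6KO and 0.511 and 0.662 in WT. The gene itself held 3 and 1 peaks in Prmt6KO and 0 and 0 in WT. A pair of Prmt6KO peaks in the gene overlapped, at 61989440 to 61989681 (4 fragments) in replicate 1 and 61989429 to 61989628 (5 fragments) in replicate 2. Another 2 such pairs lay just beyond the higher-coordinate end of the gene, at 61992581 to 61992780 and 61993296 to 61993658 in replicate 1. No WT peak overlapped any of these 3 pairs. Over all windows 10.6% and 21.8% of Prmt6KO peaks overlapped the other replicate. Of the Prmt6KO replicate 1 peaks, 4.24% and 3.06% overlapped WT replicates 1 and 2, so the lack of WT overlap does not set Myc apart. The window also reaches into Pvt1, a long non-coding RNA gene.

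**Figure D2:**
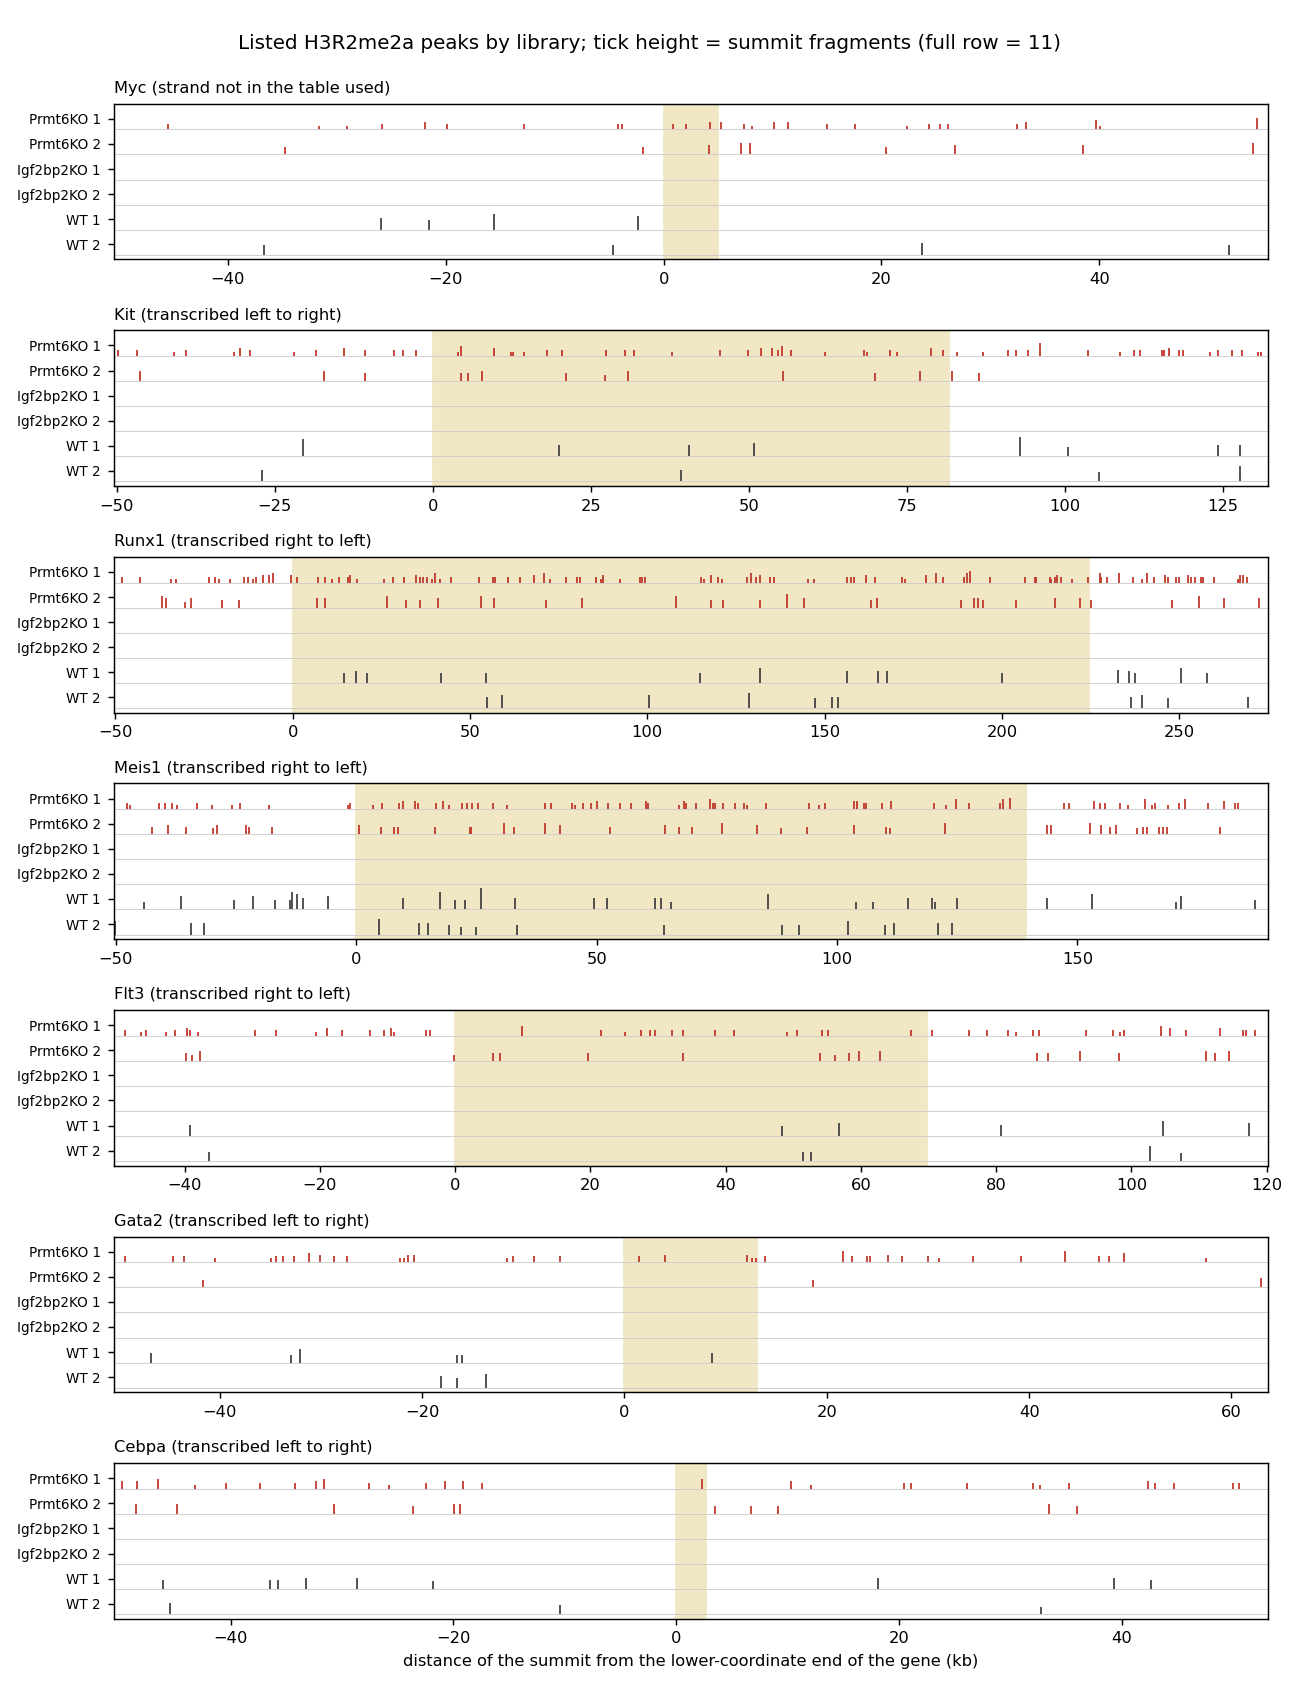
Summits of the listed peaks in each of the 7 windows, as distance from the lower-coordinate end of the gene (kb, gene shaded), with a row for each Prmt6KO, Igf2bp2KO and WT library and the summit's fragments as tick height. Rows of Prmt6KO replicate 1 are the most crowded (28 to 112 peaks a window), rows of Igf2bp2KO are empty, and of the 33 and 18 WT peaks at Meis1, 18 and 15 lie in the gene.

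The order of the genes by relative density differed between genotypes and was mostly within the spread of replicates. Meis1 came first in both. Its Prmt6KO values of 1.12 and 1.10 were above both of Runx1, the next gene there (1.09 and 0.663), and its WT values of 2.18 and 1.44 were above both of Cebpa, the next in WT (1.39 and 0.561). By mean log2 value the order went on in Prmt6KO with Flt3, Cebpa, Kit, Myc and Gata2, and in WT with Runx1, Myc, Gata2, Flt3 and Kit. The 2 values of each of these genes overlapped those of its neighbours in the order, so it ranks none of them. Gata2 was lowest in Prmt6KO through replicate 2 alone.

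Whether the loss of Prmt6 changed the relative density was tested with limma across all windows with a mean of at least 5 peaks, which were 21480 of 21523 and included all 7 genes. The log2 difference, Prmt6KO minus WT, passed in no member. The SE of a window came from the trend of the spread over all windows and not from its own replicates, since limma found no variation around that trend. Of the members, 0 were higher and 0 lower at a Benjamini-Hochberg adjusted p of 0.05. Of all windows tested, 10 were higher (0.0466%) and 188 lower (0.875%), so a count of 0 among 7 is near the background. In simulated data the test recovered 0 of 95 changes of 2-fold and 3 of 83 of 4-fold. The spread between simulated libraries was fixed in advance and not estimated from the lists, so recovery here may differ. A count of 0 calls does not show that the genes did not differ. At an unadjusted p under 0.05 it was 0 of 7 members and 1833 windows (8.53%). The median difference was -0.05 over the members, with 3 of 7 above 0, and 0.28 over all windows, with 65.3% above 0. Meis1 had the lowest difference, -0.66 ± 0.34 (SE, limma adjusted p = 0.587), with a 95% interval of -1.32 to 0.0041, and lay at percentile 7.27 of all windows. Gata2 had -0.59 ± 0.88 (limma adjusted p = 0.824), and its Prmt6KO libraries had an SD of 1.89 on this scale. Without Prmt6KO replicate 2 the Gata2 difference was 0.75, so that library sets its sign. The difference was 0.51 ± 0.66 (limma adjusted p = 0.801) at Flt3, 0.32 ± 0.76 (0.888) at Kit and 0.24 ± 0.56 (0.885) at Runx1. It was -0.24 ± 0.52 (limma adjusted p = 0.877) at Cebpa and -0.05 ± 0.69 (0.983) at Myc. Their 95% intervals were wide, from -0.79 to 1.81 at Flt3 and from -1.40 to 1.30 at Myc, so differences of that size were not detectable here. With each library centred on the median of all windows the values were -0.89 at Meis1, -0.82 at Gata2, -0.48 at Cebpa, -0.29 at Myc, 0.01 at Runx1, 0.08 at Kit and 0.27 at Flt3. The counts over all windows were 0 and 0 without the trend, and they depend on single libraries: 0 windows were higher without Prmt6KO replicate 2 and 54 without WT replicate 2, and 38 were lower without WT replicate 2.

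**Figure D3:**
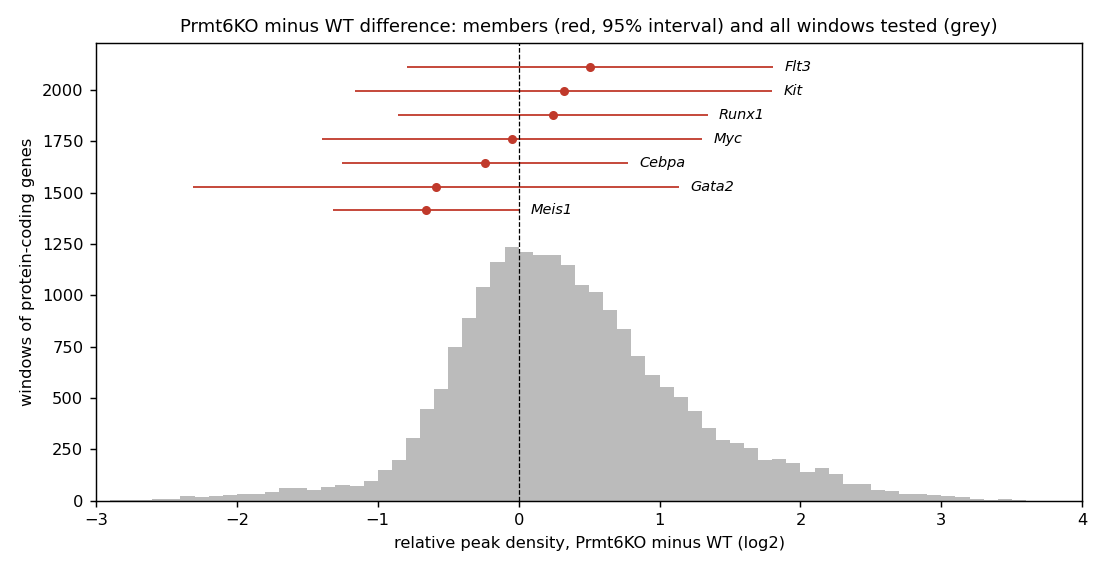
Difference in relative H3R2me2a peak density, Prmt6KO minus WT (log2), at each of the 7 genes (red points, lines are 95% intervals from limma), above the number of windows at each difference over all windows tested (grey bars, median 0.28). All 7 intervals include 0, and Meis1 (-0.66) is the lowest.

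Among 40 other blood and leukemia stem cell genes, chosen by name, 0 rose and 0 fell in Prmt6KO at a limma adjusted p of 0.05. All 40 passed the minimum number of peaks. The median difference was 0.49 and 27 were above 0, or 67.5%, beside 65.3% of all windows. Those with the highest values were Lyl1 (2.48, limma adjusted p = 0.617) and Prdm16 (2.13, 0.671), transcription factors, and Gata1 (2.12, 0.598), the red cell factor. The WT mean log2 values of Lyl1 and Prdm16 were -3.68 and -3.43, beside a median of -0.47 over all windows. With so few WT peaks, the size of these differences depends on the 0.5 added to each number. Gata1 lies on chromosome X, where WT replicate 1 had few peaks. Those with the lowest values were Spi1 (-1.46, limma adjusted p = 0.725), which encodes the myeloid factor PU.1, Lmo2 (-0.71, 0.795) and Pbx3 (-0.70, 0.569), which encodes a partner of MEIS1.

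Igf2bp2KO lists had no peak at any member. In all 7 windows both libraries held 0 peaks, where their mean density gives 0.462 and 0.587 together. A count of 0 allows up to 3 peaks, which over the 7 windows together is 6.49 and 5.11 times the number expected. At Runx1, the longest window, it is 24.7 and 19.5 times. Densities below those limits, sparse ones included, were not detectable. Of all windows, 99.1% and 98.6% held 0 peaks in Igf2bp2KO. All 7 genes had 0 peaks in both Igf2bp2KO libraries and at least 1 in both WT libraries, as had 89.2% of all windows. The lists start at other heights: of the 82 and 48 WT peaks in the windows, 12 and 4 reached 8 fragments, the lowest summit of Igf2bp2KO replicate 1, and 22 and 10 reached 7, that of replicate 2. This comparison and that of Prmt6KO share the WT libraries.

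The peaks at these genes were low, as in the rest of each list. The median summit was 3 and 4 fragments in Prmt6KO and 6 and 6 in WT, and the highest was 7 and 7 in Prmt6KO and 11 and 8 in WT. A fold enrichment of 3 or more, the authors' value for each peak, was reached by 7.35% and 10.2% of the peaks in Prmt6KO and 26.8% and 20.8% in WT. Over all windows it was 7.25% and 14.7% in Prmt6KO and 27.8% and 21.8% in WT, with the widest gap in Prmt6KO replicate 2. At these genes the value of 3 was first reached at 5 and 6 fragments in Prmt6KO and at 7 in both WT lists. The shares are thus not set at 1 height across genotypes, and in WT they count the same 22 and 10 peaks that reached 7 fragments. A q of 0.05 or below was given to 1 and 0 peaks in Prmt6KO and 5 and 0 in WT, or 0.245% and 0%, and 6.10% and 0%. Over all windows the shares were 0.501% and 1.33% in Prmt6KO and 3.24% and 2.21% in WT. The 5 WT peaks were all of replicate 1, 2 at Kit and 3 at Meis1.

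**Figure D4:**
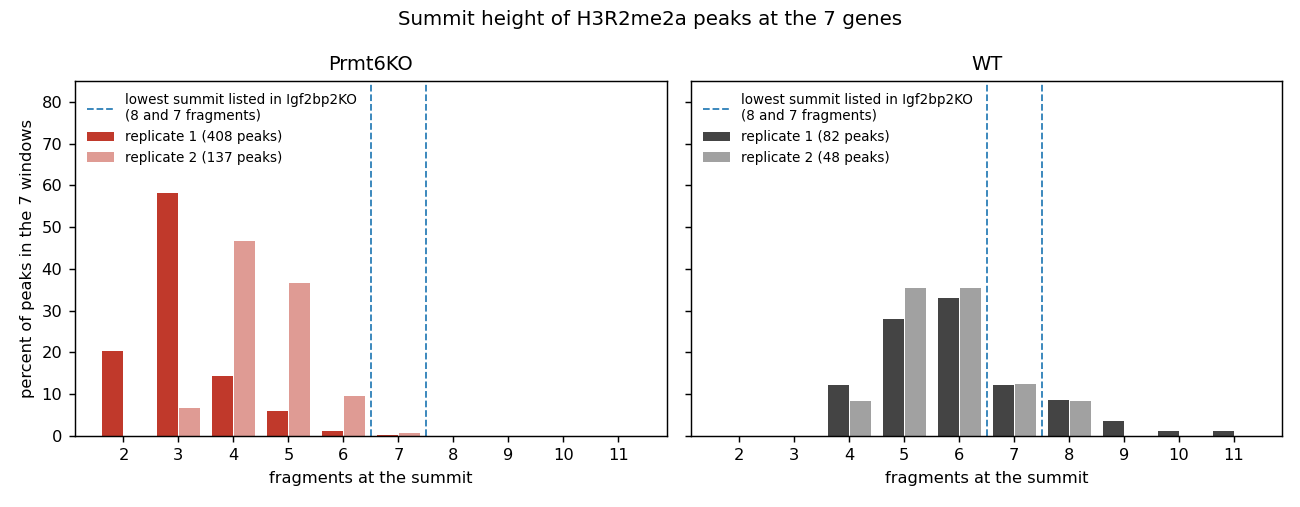
Percent of the peaks in the 7 windows at each summit height (fragments), by library, for Prmt6KO and WT; dashed lines mark the lowest summit listed in Igf2bp2KO. Summits reach 7 and 7 fragments in Prmt6KO and 11 and 8 in WT, and the Igf2bp2KO lists, which start at 8 and 7 fragments, hold 0 peaks here.

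Few peaks of the 7 windows were found in both libraries of a genotype, counting any overlap of at least 1 base. In Prmt6KO, 31 of 408 peaks of replicate 1 (7.60%, exact binomial 95% interval 5.22 to 10.6) overlapped replicate 2, and 30 of 137 of replicate 2 (21.9%, 15.3 to 29.8) overlapped replicate 1. Over all windows these shares were 10.6% and 21.8%. In WT, 2 of 82 (2.44%, 0.297 to 8.53) and 3 of 48 (6.25%, 1.31 to 17.2) overlapped, beside 6.10% and 7.76% over all windows. Meis1 held 11 of the 31 replicated Prmt6KO replicate 1 peaks, out of 85 listed there, and Gata2 held 0 out of 41. Beside 10.6% over all windows, the count does not set Meis1 apart. Prmt6KO replicate 2 listed only 3 peaks at Gata2, so few overlaps were possible there. Of the WT peaks, 16 (19.5%) and 8 (16.7%) overlapped Prmt6KO replicate 1, beside 22.2% and 20.3% over all windows. With Prmt6KO replicate 2 it was 4 (4.88%) and 2 (4.17%), beside 14.8% and 15.2%.

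**Figure D5:**
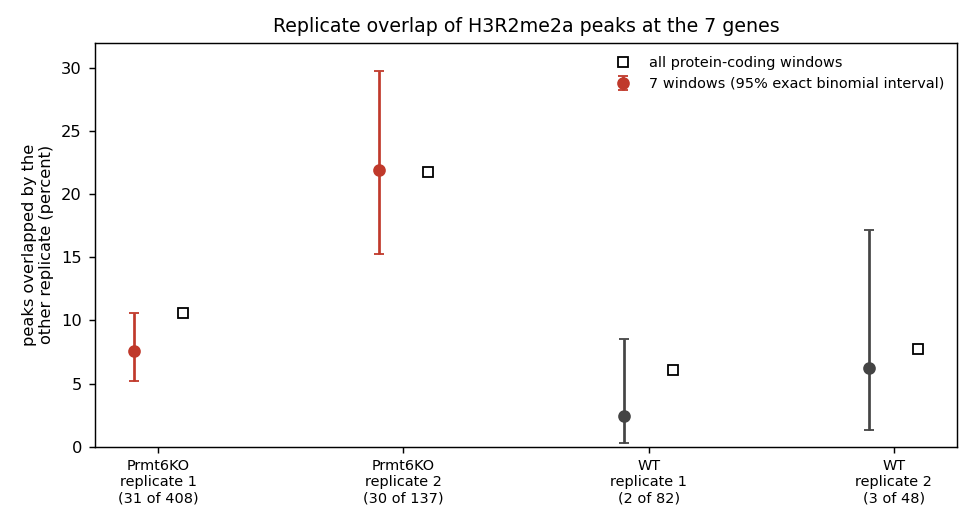
Share of peaks (%) that overlapped a peak of the other library of the same genotype, in the 7 windows with exact binomial 95% intervals and over all windows, for Prmt6KO and WT. Shares in the 7 windows were 7.60% and 21.9% in Prmt6KO and 2.44% and 6.25% in WT.

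The genes whose pattern over the 4 Prmt6KO and WT libraries was most like each member, by Euclidean distance of log2 relative densities, were Pcdhga12 for Kit (0.0843), Ep400 for Flt3 (0.0955) and Ccdc93 for Runx1 (0.0941). They were Khk for Gata2 (0.276), Gm6557 for Cebpa (0.0711), Dennd11 for Meis1 (0.0357) and Calr for Myc (0.0523). Gata2, with its wide gap between Prmt6KO libraries, had the most distant match.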

How the data were processed

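H3R2me2a ChIP-seq was analysed from 6 peak lists, 1 for each library and none pooled. Per the submitters' processing notes the tools were bcl2fastq 2.17, Trim Galore, HISAT2, MACS2 2.1.0 and bedtools, with the build mm10; settings and order are not given there. The deposited files give each peak a fold enrichment ratio, −log10 p-value and −log10 q-value, and a pileup signal, per the file headers. The pileup signal of the deposited Igf2bp2KO lists was divided by its step to give fragments. Library totals are not given in the sources used here, so the depth is read from the background in fragments. Genotypes and replicates came from the sample titles.

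From the lists, peaks overlapping each protein-coding gene with 50 kb on either side by at least 1 base were counted and set against the list's mean density over chromosomes 1 to 19 and X, and against 1 Mb on either side. limma 3.58.1 (R 4.3.3, trend) was fitted to log2 of (peaks + 0.5) over (expected + 0.5) in windows with a mean of at least 5 peaks, for the Prmt6KO and WT libraries, with Benjamini-Hochberg adjustment over all windows, and was tested on simulated data, with low recovery. With no read counts per window, no count model was used. Intervals (95%, exact Poisson or Clopper-Pearson) and the limit of 3 peaks for a count of 0 cover counting error alone. Python 3.11.15, numpy 2.4.6, pandas 2.3.3 and scipy 1.17.1 did the rest.

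The members, the list of other regulators and the tests were chosen with earlier results of these data known. Named beside the members were the 3 highest and 3 lowest other regulators, the gene nearest to each member in pattern, and single peaks that were the highest of a window, had a q of 0.05 or below or were shared between replicates and genotypes. The peaks nearest to start sites and other replicated pairs were chosen after their values were seen. Alternatives were other windows, densities, filters, trends and pseudocounts, a replicate block, and leaving out each library. Sequences and gene positions are from RefSeq (GRCm38.p6).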

Additional observations from a re-analysis of the deposited data

How the results depend on the processing

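No member passed limma's threshold under any alternative run. Of 115 member values under alternatives, 101 kept their direction and 14 were reversed. Meis1 stayed negative throughout, from -0.95 to -0.36 (limma adjusted p of 0.252 to 0.998). Reversed values were 0.037 at Myc, -0.15 at Runx1 and -0.31 at Flt3 against the local density. They were 0.41 at Myc, 0.30 at Gata2 and 0.24 at Cebpa with 100 kb on either side, and 0.26 at Myc by bases covered. Leaving out 1 library gave -0.39 to 0.30 at Myc, -0.27 to 0.91 at Kit, -0.11 to 0.60 at Runx1, -1.92 to 0.75 at Gata2 and -0.83 to 0.35 at Cebpa. The cause was not tested.

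The 10 windows higher and 188 lower in Prmt6KO by limma were 0 and 0 without a trend, with a trend over the expected number, against the local density, at a fold enrichment of at least 3 and for genes without flanks. They were 0 and 1 with 10 kb and 31 and 331 with 100 kb on either side, 16 and 182 by bases covered, and 0 and 145 after centring. Leaving out 1 library gave 0 to 54 higher and 38 to 177 lower. The replicate block gave 3 higher and 187 lower and changed no call at a member; same-numbered libraries deviated with r = 0.19 over windows, and with 2 pairs the numbers are not taken to pair them. The trend over the expected number, the gene without flanks and the expected number from chromosomes 1 to 19 were chosen after seeing the data. Myc, Gata2 and Cebpa had too few peaks to be fitted with 10 kb or without flanks, and 5 members at a fold enrichment of at least 3.

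The difference over the 7 windows together was -1.25 at a q of 0.05 or below, against -0.09, and rests there on 1 and 0 peaks in Prmt6KO and 5 and 0 in WT. It was -0.45 against the local density and ran from -0.42 to 0.24 when 1 library was left out (0.24 without Prmt6KO replicate 2, 0.16 without WT replicate 1), so its sign is not settled. The replicate overlap of Prmt6KO fell to 3.43% and 10.2% where at least 50% of both peaks had to be shared. With the fold enrichment minimum of 3 it was 0% in Prmt6KO and 0% in WT. It was 0% in WT with 10 kb on either side. With a q up to 0.05 it could only be 0%, since replicate 2 of both genotypes had 0 such peaks. Igf2bp2KO held 0 peaks under each alternative run.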
